A study of Sus scrofa with 27 samples.

Results

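Histone genes and the factors that supply histones to replicating chromatin were followed in mural granulosa cells (GCs), which form the inner lining of the follicle wall, of full-fed (FF) and feed-restricted (RES) sows. The genes were all identifiers in the count files whose symbol is that of a histone of the H1, H2A, H2B, H3 or H4 family, together with 12 supply factors. This gave 37 of the 35670 identifiers in each file, namely 15 replication-dependent histone genes, 10 histone variants and the 12 factors. At a minimum mean of 5 reads in the 27 libraries, 13 of the 15 replication-dependent genes, 7 of the 10 variants and all 12 factors were tested, 32 of the 11384 named genes tested in all. No gene of the H4 family carried a symbol in the table of names, and the clustered H3 family was represented by H3C2 and H3C4 alone. The RefSeq annotation lists 67 genes with a histone product on the pig chromosomes, so the 25 histone symbols cover only some of the pig histone genes.

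All animals were wild-type primiparous sows of the cross Large White times Norwegian Landrace, and each library came from 1 sow, from the largest follicle without signs of atresia in the right ovary, from which GCs were cut by laser capture microdissection. In the last 2 weeks of lactation the 13 FF sows were given 6.5 kg and the 14 RES sows 3.25 kg of feed daily. Both groups were fed alike from weaning until the ovaries were taken on day 2. The study reports that the largest healthy follicle was smaller in RES than in FF sows. Diet and follicle size therefore cannot be told apart here. Sows were chosen from a larger trial by their weight loss, and FF sow 9 was left out for its RNA quality. Ribosomal RNA was depleted and complementary DNA was primed with random hexamers, so RNA without a poly(A) tail was not selected against by priming. Unique molecular identifiers let PCR copies be counted once. Libraries held 12299220 to 16021200 counted reads in FF and 12942198 to 18120922 in RES. Markers of GCs other than AMH (mean count 6.81) were abundant, and none of the 8 tested was called. Their summed normalized count was 71149 to 121913 in FF and 76754 to 146826 in RES. Of 5 theca markers 1 was lower in RES (CYP11A1, log2 fold change -1.28, adjusted p = 0.0092), and their summed count was 1311 to 4206 in FF and 637 to 3735 in RES. Of 5 endothelial and mural cell markers 2 were lower in RES, with sums of 736 to 1385 in FF and 548 to 1676 in RES. Neither of 2 immune markers tested was called, with sums of 40.5 to 169.9 and 33.3 to 181. The part of these other cells in the results below was not tested. Base quality divided the libraries into an upper group (7 FF, 7 RES) and a lower group (6 FF, 7 RES), within which the counts of each gene list are also given. RES sows 3 and 5 had the lowest base quality, and the lowest RNA integrity is listed for FF sow 10. It is uncertain whether the quality record of FF sow 10, which places it in the lower base-quality group, is that of the library used.

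Replication-dependent histone genes are transcribed mainly in S phase, when new chromatin must be packed, and most of them lie in clusters. Their messenger RNAs end in a conserved stem-loop in place of a poly(A) tail, and the stem-loop binding protein SLBP holds that structure during 3′ end processing, export and translation. Histone variants are mostly made from polyadenylated RNA throughout the cell cycle and replace the replication-dependent forms at particular places in chromatin. Chaperones carry newly made histones to the replication fork. GCs of growing follicles divide, so histone RNA in this tissue is closely tied to the cell cycle.

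The stem-loop is shown here because it is what sets the replication-dependent class apart in sequence. RefSeq loci of Sscrofa11.1, the build of the count files, were found for 26 of the 27 members looked up. Histone loci were linked by product name, not by identifier. Of the replication-dependent genes tested below, H2AC11, H2AC12, H2AC17, H2BC5, H3C2 and H3C4 had no linked locus and were not searched. A pattern of 16 bases, GGNNC followed by TTTT, NAG and NGCC without a gap, was searched on the coding strand in the 200 bases after the stop codon. It was present in 9 of 9 replication-dependent genes with a locus, among them H1-6 and H2AC25, which were under the count minimum of the test, in 1 of 6 variants, which was H2AX, and in 0 of 11 supply factors. Among all 20657 protein-coding RefSeq genes searched, 0.261% held it, and among the 67 with a histone product 73.1% did. Of the genes printed, H1-3 encodes a linker histone, H2BC11, H2BC18 and H2BC26 encode H2B, H2AC21 encodes H2A, and H2AX encodes the variant that is phosphorylated at DNA breaks. In the following lines capitals mark the 16 bases of the stem-loop pattern.
H1-3: ctaaaGGCTCTTTTCAGAGCCaccca
H2AC21: ccaaaGGCTCTTTTAAGAGCCaccaa
H2BC11: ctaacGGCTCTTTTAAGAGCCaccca
H2BC18: ccaaaGGCTCTTTTCAGAGCCacata
H2BC26: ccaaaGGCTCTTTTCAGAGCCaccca
H2AX: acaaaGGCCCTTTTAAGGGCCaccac
The stem-loops of H1-3 (chr7:20881591-20881606, minus strand), H2BC11 (chr7:21220078-21220093, minus strand), H2BC18 (chr4:99218298-99218313, plus strand) and H2BC26 (chr2:51693092-51693107, minus strand) begin 36, 30, 43 and 29 bases after the stop codon. That of H2AC21 (chr4:99168680-99168695, plus strand) faces the stem-loop of H2AC20, the neighbouring H2A gene on the opposite strand, with 66 bases between them. Strand was kept in the libraries but not used in the counting, so reads running past the end of either gene cannot be assigned to one of them with certainty. The H2AX stem-loop lies at chr9:46309585-46309600 on the minus strand, 53 bases after the stop codon.

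Elements known from histone promoters were searched before the start codon of the 26 members with a locus. Where the RefSeq start lies far from that codon, as in CASP8AP2, HINFP and LSM10, the window need not hold the promoter. The octamer ATTTGCAT, the element bound by the transcription factor POU2F1, was found on either strand within 250 bases before the start codon in 5 of 9 replication-dependent genes, in 0 of 6 variants and in 0 of 11 supply factors, against 1.17% of 20656 protein-coding genes. The motif CCAAT, which NFY binds, was present in 9 of 9, 4 of 6 and 7 of 11 (26.3% of all genes), and TATAAA in 5 of 9, 1 of 6 and 0 of 11 (11.7% of all genes). TTTNGCGC was present in 0 of the 26 windows (1.17% of all genes) and GCGGAC in 1 supply factor (10.7% of all genes). A match is a description of letters and not a measured binding site. The octamer lies 94 bases before the start codon in both H2BC11 and H2BC18. In H2BC26 it lies 171 bases before the codon, in a window that H2BC26 shares with H2AC25 on the other strand, so that a single site counts for both genes. The sites are printed with the octamer in capitals.
H2BC11: ctaatcaccttATTTGCATaagagattcta
H2BC18: agttagtcttcATTTGCATacaggctctat
H2BC26: gctatcccctaATTTGCATgtgccttttgc
They lie at chr7:21220579-21220608 (minus strand), chr4:99217770-99217799 (plus strand) and chr2:51693669-51693698 (minus strand). The 190 bases before the RefSeq start of H2BC11, chr7:21220564-21220753 on the minus strand, show how the elements are arranged in an H2B gene that differed between diets. Capitals mark CCAAT in either orientation, then the octamer, then TATAAA.
H2BC11 upstream: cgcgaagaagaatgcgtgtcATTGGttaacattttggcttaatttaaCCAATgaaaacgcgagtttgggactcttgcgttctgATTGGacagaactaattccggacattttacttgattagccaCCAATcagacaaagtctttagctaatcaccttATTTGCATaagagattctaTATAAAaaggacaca

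Replication-dependent histone RNA was higher in GCs of RES sows. Of the 13 genes tested, 12 were called higher and 0 lower (edgeR's quasi-likelihood test, Benjamini-Hochberg adjusted p under 0.05), where 8.29% of all 11384 genes were called higher, 5.85% lower and 14.1% in either direction. DESeq2 also called 12 higher and 0 lower. The median log2 fold change of the 13 genes was 1.03 (range -0.06 to 1.52), beside a median of -0.015 over all genes tested. The linker histone H1-3, all 6 H2A genes, the 2 H3 genes and 3 of 4 H2B genes were among those called. H2BC26 was the gene not called. In bulk RNA a larger share of cells in S phase and more histone RNA per cell cannot be told apart. The normalized counts below were obtained with the size factors of DESeq2. They are not scaled to gene length and compare sows, not genes. A log2 fold change is that of RES over FF and is followed by its standard error (±).

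The linker histone H1-3, which binds DNA at the entry to the nucleosome, ranged from 338 to 1825 (median 803) in FF and from 736 to 4562 (median 2338) in RES. In 13 of 14 RES sows it lay above the FF median and in 10 above the highest FF sow, and the groups overlapped at their margins. The log2 fold change was 1.23 ± 0.23 (adjusted p = 0.00194). H2BC18, an H2B gene, differed most, from 125 to 741 (median 313) in FF and from 313 to 1888 (median 997) in RES. All 14 RES sows lay above the FF median. Its log2 fold change was 1.52 ± 0.27 (adjusted p = 0.00183), a 2.86-fold difference.

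Among the H2A genes, H2AC20 ranged from 153 to 619 (median 386) in FF and from 264 to 1382 (median 877) in RES. It lay above the highest FF sow in 12 of 14 RES sows, with a log2 fold change of 1.03 ± 0.22 (adjusted p = 0.00277). Its convergent neighbour H2AC21 ranged from 3.01 to 123 (median 49.5) in FF and from 47.9 to 443 (median 165) in RES, also with 12 of 14 RES sows above all FF sows. For H2AC21 the log2 fold change was 1.45 ± 0.32 (adjusted p = 0.00333). H2AC11 ranged from 27.9 to 260.1 in FF and from 93.8 to 715 in RES (log2 fold change 1.29 ± 0.29, adjusted p = 0.00417). H2AC6 (log2 fold change 1.00 ± 0.26) and H2AC17 (0.94 ± 0.29) were called with adjusted p = 0.0105 and 0.0273. H2AC12 had the same size of difference as H2AC6 but a wider spread (log2 fold change 1.00 ± 0.33, adjusted p = 0.0386), from 11.5 to 148 in FF and from 15.0 to 266 in RES. Its call was lost in 14 of the 27 fits that left out 1 library (adjusted p 0.0513 to 0.0682).

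The other called H2B genes and the H3 genes showed differences of like size. H2BC5 ranged from 127 to 501 (median 324) in FF and from 264 to 1571 (median 558) in RES (log2 fold change 0.95 ± 0.20, adjusted p = 0.00264). H2BC11, whose upstream sequence is printed above, ranged from 6.73 to 63.5 (median 28.2) in FF and from 21 to 131 (median 65.1) in RES. In RES, 7 of 14 sows lay above every FF sow, and the log2 fold change was 1.19 ± 0.30 (adjusted p = 0.00792). H3C4, a clustered H3 gene, ranged from 2.88 to 37.4 in FF and from 21 to 137 in RES (log2 fold change 1.4 ± 0.31, adjusted p = 0.00356). The other H3 gene, H3C2, was nearer to the threshold (log2 fold change 0.95 ± 0.31, adjusted p = 0.0398). It lost its call in 13 of the 27 fits (adjusted p 0.051 to 0.0874).

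H2BC26 carries the stem-loop and the octamer and was not called. Its normalized count was 69.2 to 134 (median 101) in FF and 65.3 to 150.4 (median 100.3) in RES, and 7 of 14 RES sows lay above the FF median. The log2 fold change was -0.06 ± 0.13 (adjusted p = 0.788). Its spread between sows was also smaller than that of the 12 called genes, with a coefficient of variation of 18.9% in FF and 23.5% in RES against 34.3% to 63.3% and 34.9% to 58.8%. In RefSeq the model of H2BC26 overlaps that of H2AC25 on the opposite strand, and H2AC25, an H2A gene, gave 7 reads over all 27 libraries. Without a strand option such reads may be assigned to either gene or dropped, so the level of both is uncertain. The coding sequences of H2B members with a locus were 81.6% to 85.6% identical, with the longest shared run, 57 bases, between H2BC11 and H2BC18. Reads that fit more than 1 copy were left out of the counts, which can lower the counts of near-identical genes.

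**Figure D1:**
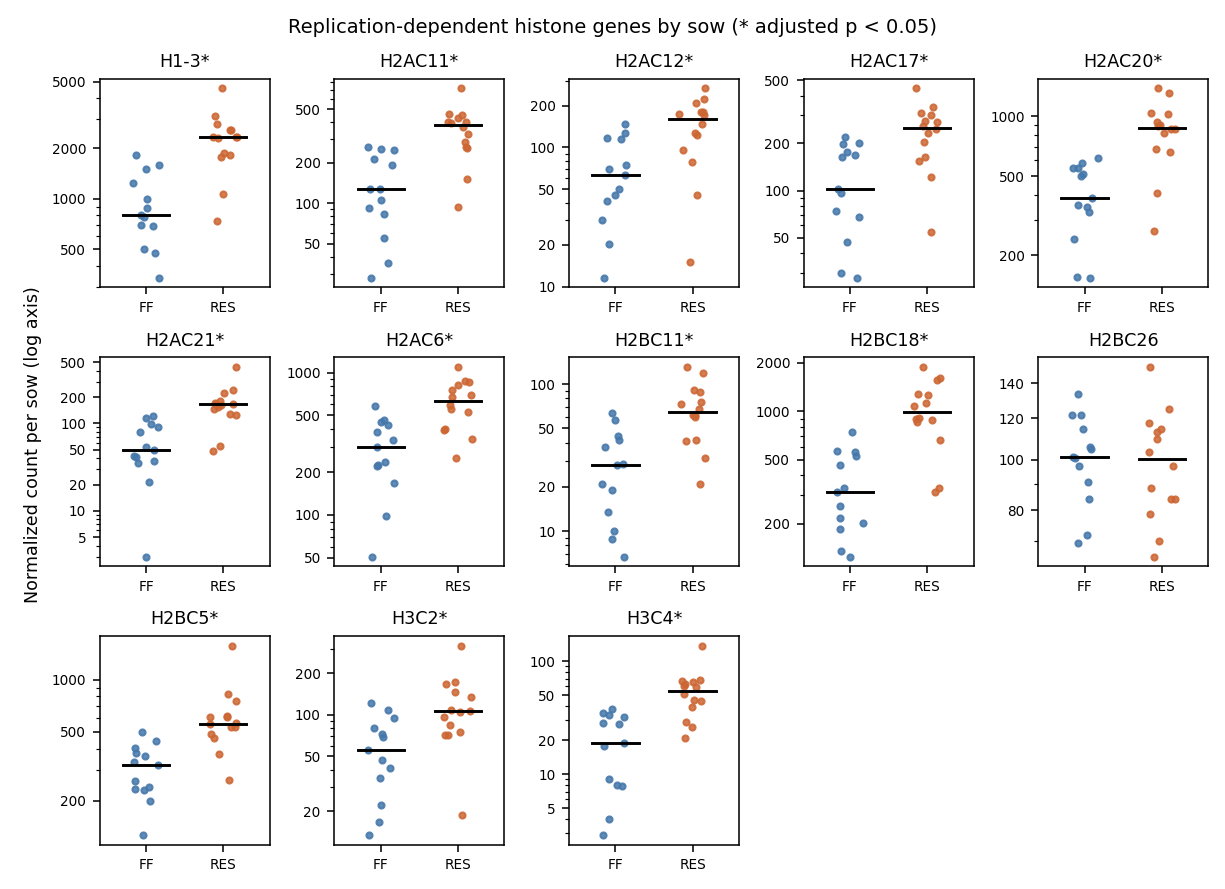
Normalized count (log axis) of the 13 replication-dependent histone genes tested in FF (13 sows, blue) and RES (14 sows, orange), with 1 point per sow and a bar at the group median. In the 12 genes marked with an asterisk 12 to 14 RES sows lie above the FF median, while H2BC26 lies at 101 in FF and 100.3 in RES by the median.

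The same sows stood at the ends of the range for most of these genes. RES sow 7 was the lowest RES sow in 12 of the 12 called genes, and RES sow 3 the highest in 10. Among FF sows, sow 2 was lowest in 8 of the 12 genes, sow 7 in 3 and sow 8 in 1, while the highest was shared between 5 sows. Since RES sow 3 is also 1 of the 3 libraries of lowest quality, each count was run without it. Without RES sow 3, 9 of the 13 genes were called, the lowest number on leaving out any of the 27 libraries in turn. Without all 3 libraries of lowest quality, 10 were called and the median log2 fold change was 1.00. H1-3, H2AC6, H2AC11, H2AC20, H2AC21, H2BC5, H2BC11, H2BC18 and H3C4 were called in all 27 fits that left out 1 library.

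Summed over the 13 genes, replication-dependent histone reads per 1000000 reads of the library numbered 73.5 to 372 with a median of 194 in FF, and 166 to 838 with a median of 450.2 in RES. The sum was above the FF median in 13 of 14 RES sows. Without H1-3, the gene with the most reads, the sums were 49.4 to 251 in FF with a median of 137, and 111 to 529 in RES with a median of 298. Set against the summed normalized counts of 39 S phase genes, the histone sum was 0.114 to 0.316 of that of the S phase genes in FF with a median of 0.214, and 0.229 to 0.456 in RES with a median of 0.297. These sums are descriptions without a test.

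The diet difference of the replication-dependent genes was of like size within the base-quality groups. In the upper group 12 of 13 genes were higher in RES, the median log2 fold change being 1.22, and 9 were called, where 17.8% of all genes were called. In the lower group all 13 had a positive log2 fold change, with a median of 1.09. There 0 genes reached an adjusted p under 0.05 in edgeR and 11 had an unadjusted p under 0.05. In that group 1 of 11384 genes (0.00878%) was called in all. For H2BC18 the upper group gave a log2 fold change of 1.51 ± 0.37 and the lower group 1.55 ± 0.36. For H1-3 it was 1.22 ± 0.33 and 1.26 ± 0.31. H2AC17 was the called replication-dependent gene whose values differed most, at 1.3 ± 0.39 and 0.57 ± 0.38, and the difference between its values had an unadjusted p of 0.218.

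**Figure D2:**
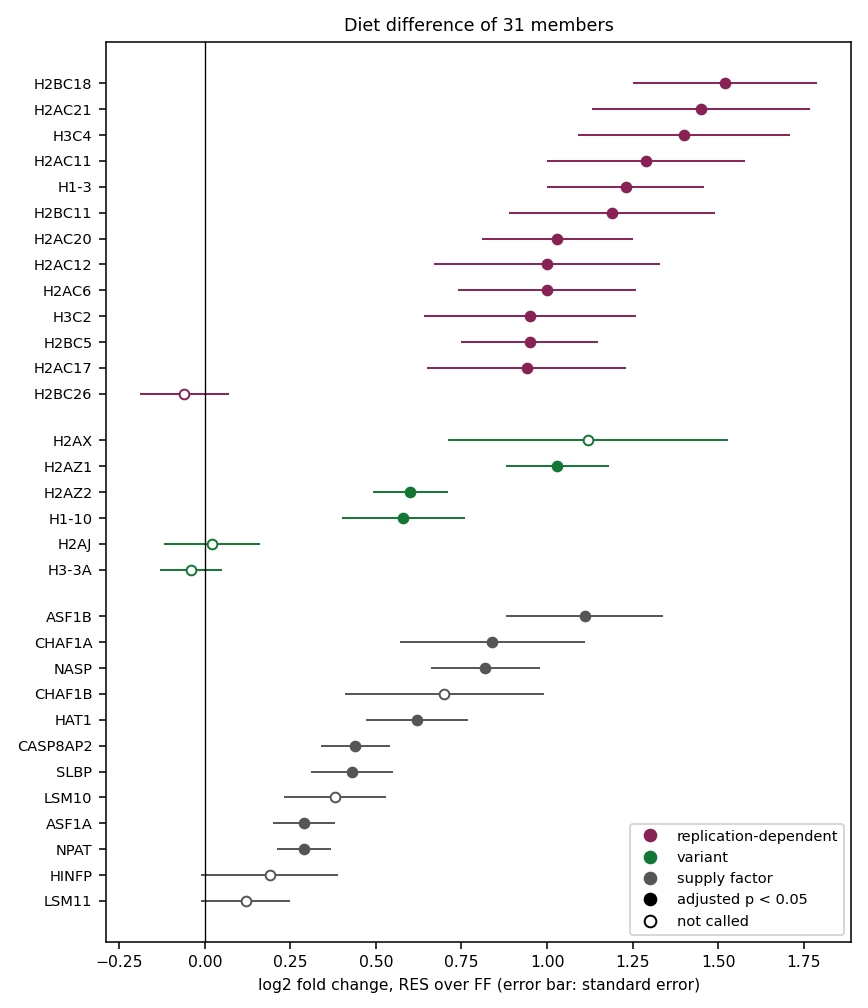
log2 fold change of RES over FF with its standard error for 31 members tested, ordered within the replication-dependent genes (top), the variants (middle) and the supply factors (bottom). Filled points passed an adjusted p of 0.05 and open points did not. The medians of the 3 classes, over all members tested, are 1.03, 0.58 and 0.44.

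Histone variants were divided. Of 7 tested, 3 were called higher in RES and 0 lower, where 8.29% of all genes were called higher, and DESeq2 called 4 higher and 0 lower. The median log2 fold change was 0.58 (range -0.04 to 1.12). Both genes of H2A.Z, the variant found at the nucleosomes around transcription starts, were among the 3. H2AZ1 ranged from 5438 to 11253 (median 8006) in FF and from 8727 to 30172 (median 16969) in RES, and 12 of 14 RES sows lay above the highest FF sow. With a log2 fold change of 1.03 ± 0.15 (adjusted p = 0.00183) its difference was as large as the median of the replication-dependent genes. H2AZ2 ranged from 1254 to 3082 (median 2205) in FF and from 2372 to 4293 (median 3519) in RES. It lay above the FF median in all 14 RES sows, with a smaller log2 fold change of 0.60 ± 0.11 (adjusted p = 0.00194).

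H1-10, a linker variant also known as H1x, was 48.3 to 138 (median 70.1) in FF and 56.9 to 242 (median 118) in RES (log2 fold change 0.58 ± 0.18, adjusted p = 0.0281). The highest value was that of RES sow 3. Without that sow the log2 fold change was 0.47 and the adjusted p 0.0573, and without the 3 libraries of lowest quality 0.41 and 0.0929. H2AX, the variant with a stem-loop, had a low count, from 1.00 to 35.5 (median 14.3) in FF and from 7.99 to 131 (median 24.0) in RES. In 12 of 14 RES sows it lay above the FF median. The log2 fold change of H2AX was 1.12 ± 0.41 (adjusted p = 0.0616), and without RES sow 3, again the highest, it was 0.77. DESeq2 gave an adjusted p of 0.0365 for H2AX.

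Neither H3-3A nor H2AJ was called. H3-3A, which encodes the H3.3 placed in chromatin outside replication, was 4551 to 9071 (median 6936) in FF and 5060.3 to 8567 (median 6834) in RES. Its log2 fold change was -0.04 ± 0.09 (adjusted p = 0.802), and no RES sow lay above the highest FF sow. H2AJ, an H2A variant, was 71.5 to 149 in FF and 62.1 to 158 in RES (log2 fold change 0.02 ± 0.14, adjusted p = 0.94). The direction of H2AJ and of H3-3A turned with the processing.

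Within the base-quality groups H2AZ1 kept a log2 fold change of 1.07 ± 0.19 in the upper and 0.98 ± 0.24 in the lower group, and H2AZ2 of 0.59 ± 0.15 and 0.64 ± 0.16. In the upper group 3 of 7 variants were called, where 17.8% of all genes were. In the lower group 0 were called in edgeR, where 0.00878% of all genes were, and 3 had an unadjusted p under 0.05.

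Most factors that make and carry histones were higher in RES. Of 12 tested, 8 were called higher and 0 lower, against 8.29% of all genes called higher, and DESeq2 called the same number. All 12 log2 fold changes were positive, with a median of 0.44 (range 0.12 to 1.11).

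SLBP, which binds the stem-loop of the replication-dependent RNAs, was 174 to 401 (median 286) in FF and 225 to 501 (median 395) in RES. In 13 of 14 RES sows it lay above the FF median. The log2 fold change was 0.43 ± 0.12 (adjusted p = 0.0145), smaller than that of any of the 12 called replication-dependent genes, which began at 0.94. Of the other 3 processing factors 1 was called. CASP8AP2, also known as FLASH, which joins the U7 particle in cutting histone RNA, was 1042 to 1792 in FF and 1199 to 2884 in RES (log2 fold change 0.44 ± 0.10, adjusted p = 0.00497). LSM10 and LSM11, the ring proteins particular to the U7 particle, had log2 fold changes of 0.38 ± 0.15 (adjusted p = 0.0804) and 0.12 ± 0.13 (adjusted p = 0.578). LSM10 was 17.6 to 61.0 in FF and 35.9 to 93.0 in RES, and LSM11 23.8 to 49.4 and 28.9 to 58.8.

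Of the transcription factors of histone genes, 1 of 2 was called. NPAT, the coactivator of histone genes that is phosphorylated by cyclin E and CDK2, was 813 to 1508 (median 1195) in FF and 1078 to 1928 (median 1609) in RES. Its log2 fold change was 0.29 ± 0.08 (adjusted p = 0.0188). HINFP, a transcription factor of H4 genes, was 5.72 to 22.8 in FF and 8.73 to 22.9 in RES (log2 fold change 0.19 ± 0.20, adjusted p = 0.562). With that error a difference of the size seen for NPAT could not be told from 0 in HINFP.

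Among the chaperones, ASF1B, the form of ASF1 known from dividing cells, differed most. It was 35.5 to 156 (median 93.4) in FF and 69.9 to 427 (median 191) in RES, and 11 of 14 RES sows lay above every FF sow. The log2 fold change of ASF1B was 1.11 ± 0.23 (adjusted p = 0.00256). Its paralog ASF1A, which also serves replication-independent deposition, was 477 to 850.2 in FF and 673 to 1199 in RES (log2 fold change 0.29 ± 0.09, adjusted p = 0.0274). Without FF sow 8 the adjusted p of ASF1A was 0.051. NASP, which keeps a reserve of soluble H3 and H4, was 748 to 1991 (median 1229.6) in FF and 1095 to 3624 (median 2167) in RES (log2 fold change 0.82 ± 0.16, adjusted p = 0.00194). HAT1, which acetylates newly made H4, was 510.3 to 1243 in FF and 523 to 1761 in RES (log2 fold change 0.62 ± 0.15, adjusted p = 0.00577).

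CHAF1A and CHAF1B encode the large and the middle subunit of CAF-1, which places H3 and H4 behind the replication fork. CHAF1A was 19.8 to 133 (median 47.9) in FF and 22.0 to 152 (median 98.2) in RES (log2 fold change 0.84 ± 0.27, adjusted p = 0.0332), and its call was lost in 11 of the 27 fits without 1 library (adjusted p 0.0507 to 0.0601). CHAF1B was 11.2 to 122 (median 37.9) in FF and 17.0 to 125 (median 67.0) in RES (log2 fold change 0.70 ± 0.29, adjusted p = 0.0976). In both genes 13 of 14 RES sows lay above the FF median, and FF sow 10 was the highest FF sow. Without FF sow 10, CHAF1B had a log2 fold change of 0.93 and an adjusted p of 0.0145. For CHAF1A, CHAF1B and NASP the estimated diet difference was smaller in the lower base-quality group, with and without FF sow 10. In the upper group their log2 fold changes were 1.34 ± 0.32, 1.33 ± 0.31 and 1.14 ± 0.21, and in the lower group 0.26 ± 0.36, 0.04 ± 0.41 and 0.47 ± 0.20. The interaction of diet and base quality gave unadjusted p = 0.043, 0.0236 and 0.0325 in edgeR. No member passed it after adjustment, with a smallest adjusted p of 0.355 among the 32. Only these 3 members had an unadjusted interaction p under 0.05. The share of all genes with such a p was not counted, so whether the pattern is particular to these 3 was not tested. Without FF sow 10, 1 of the 6 FF sows of the lower group and of uncertain place in it, the lower-group log2 fold changes were 0.63 ± 0.32, 0.44 ± 0.37 and 0.55 ± 0.20, and the interaction gave unadjusted p = 0.152, 0.093 and 0.067 in edgeR. In the upper group 9 of the 12 factors were called, where 17.8% of all genes were, with a median log2 fold change of 0.56. In the lower group 0 factors were called in edgeR, where 0.00878% of all genes were, with 5 at an unadjusted p under 0.05 and a median of 0.31.

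**Figure D3:**
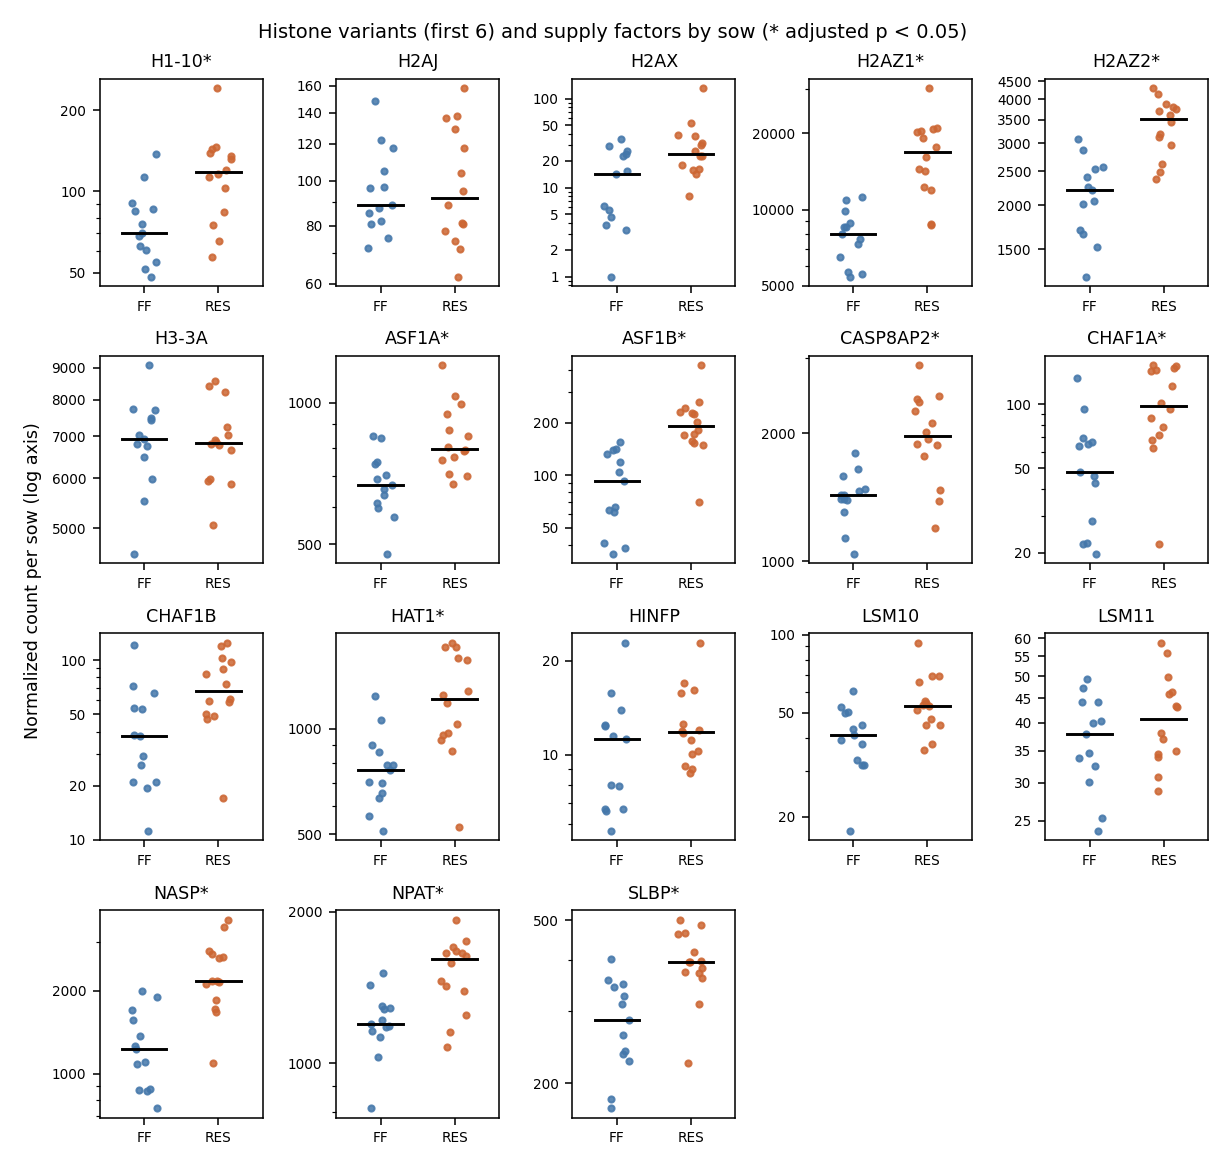
Normalized count (log axis) of 6 histone variants (H1-10 to H3-3A) and the 12 supply factors tested in FF (13 sows, blue) and RES (14 sows, orange), with 1 point per sow and a bar at the group median. An asterisk marks an adjusted p under 0.05. H2AZ1 lies at a median of 8006 in FF and 16969 in RES, whereas H3-3A lies at 6936 and 6834.

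**Figure D4:**
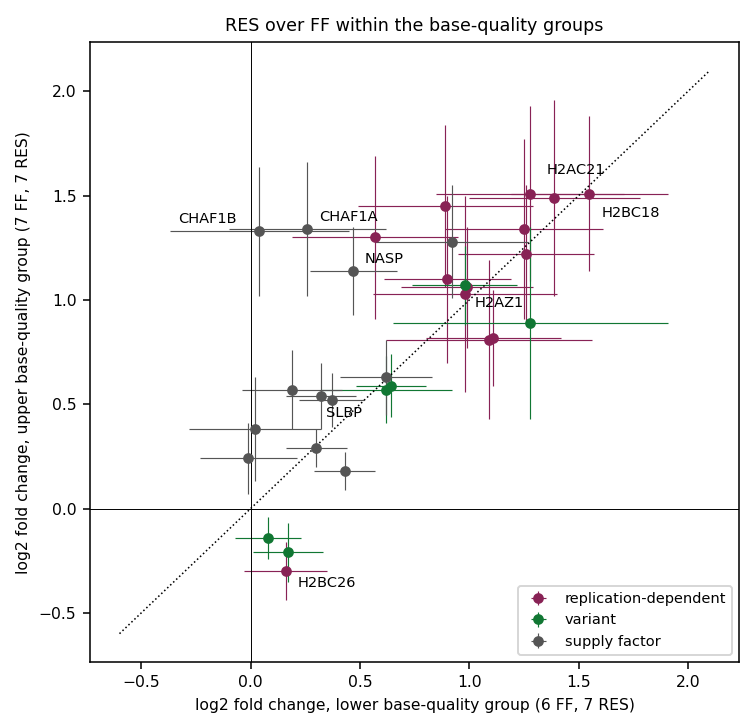
log2 fold change of RES over FF in the lower base-quality group (x axis) against the upper group (y axis) for 31 members, with standard errors and a dotted line of equality. H2BC18 (1.55 and 1.51) and H2AZ1 (0.98 and 1.07) lie near the line, and CHAF1B (0.04 and 1.33), CHAF1A (0.26 and 1.34) and NASP (0.47 and 1.14) lie above it, where without FF sow 10 the lower-group values of these 3 are 0.44, 0.63 and 0.55.

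In 23 of the 32 members tested, then, RES sows had the higher level by the test and in 0 the lower. No called member separated the groups completely, where 0.00878% of all genes did. In each of the 23, 12 to 14 RES sows had more than the FF median. The other 5 members were under the count minimum. H1-6, a linker histone best known from the testis, had a normalized count of 0 to 4.76 in FF and 0.998 to 18.8 in RES, where 7 of 14 sows lay above every FF sow. In edgeR without the count minimum H1-6 was called higher (log2 fold change 1.41 ± 0.42, adjusted p = 0.0285), on 115 reads over all libraries. H2AC25, H1-7, H1-8 and H2BK1 gave 7, 3, 7 and 4 reads over all libraries, and a difference could not be seen at this depth.

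Genes around these members were read from a list of 49 histone-related genes, of which 42 were tested, MCM2 being also in the S phase list. Of the 42, 15 were called higher and 0 lower, with a median log2 fold change of 0.24, where 8.29% of all genes were called higher. The median was 0.35 in the upper base-quality group, with 16 called, where 17.8% of all genes were called. In the lower group it was 0.16, with 0 called in edgeR and 6 at an unadjusted p under 0.05. There 0.00878% of all genes were called. The 3 with the largest difference all serve centromeric chromatin. CENPA, the H3 variant of centromeric chromatin, was 26.9 to 292 (median 156) in FF and 212 to 529 (median 357) in RES (log2 fold change 1.2 ± 0.24, adjusted p = 0.00194). MIS18A, which prepares centromeres for new CENPA, had a log2 fold change of 1.05 ± 0.26 (adjusted p = 0.00699), and HJURP, the chaperone of CENPA, one of 0.98 ± 0.27 (adjusted p = 0.0155). Subunits of the FACT chaperone, SUPT16H (0.40 ± 0.11, adjusted p = 0.0113) and SSRP1 (0.45 ± 0.12, adjusted p = 0.0141), were called with smaller differences. For HIRA, which places H3.3, the log2 fold change over all sows was 0.01 ± 0.11 (adjusted p = 0.974), with opposite signs in the base-quality groups. It was 0.34 ± 0.11 in the upper group, where HIRA was called (adjusted p = 0.0428), and -0.38 ± 0.15 in the lower group (adjusted p = 0.318, unadjusted 0.0218). The interaction of diet and base quality for HIRA gave p = 0.000158 before and 0.156 after adjustment in edgeR. ATRX was not called (0.03 ± 0.09, adjusted p = 0.88). POU2F1, the factor of the octamer, had a log2 fold change of 0.02 ± 0.09 (adjusted p = 0.904).

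Genes of S phase were read in the same sows for comparison. Of 39 tested, 31 were called higher and 0 lower, with a median log2 fold change of 0.86 (range 0.14 to 1.23), where 8.29% of all genes were called higher. In the upper base-quality group the median was 1.17 with 37 called, where 17.8% of all genes were called. In the lower group it was 0.51, with 0 called in edgeR and 13 at an unadjusted p under 0.05. There 0.00878% of all genes were called. PCNA, the sliding clamp of DNA polymerase, had a log2 fold change of 0.90 ± 0.22 (adjusted p = 0.00735), and ORC1, a subunit of the origin recognition complex, 1.23 ± 0.26 (adjusted p = 0.00277). The median of the replication-dependent histone genes, 1.03, lay above that of the S phase genes and the median of the supply factors, 0.44, below it. Within the upper base-quality group the medians of the histone and S phase genes were 1.22 and 1.17, and within the lower group 1.09 and 0.51. The difference between these lists was not tested.

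Whether SLBP followed the histone RNAs from sow to sow was examined within each diet, on log2(normalized count + 1), in 26 correlations. In RES (n = 14 sows) SLBP correlated with 10 of the 13 replication-dependent genes at a Benjamini-Hochberg adjusted permutation p under 0.05, with a median Pearson's r of 0.73, and Spearman's rho passed in 7. Of all 11384 genes, 5.36% had an r with SLBP above 0.73 in RES. In FF (n = 13 sows) 0 of 13 passed, 0 had an unadjusted permutation p under 0.05, and the median r was 0.40, which 18.6% of all genes exceeded. By Spearman's rho 2 genes in FF had an unadjusted p under 0.05 (median rho 0.53), and on counts without the logarithm 6 had one (median r 0.56), with 0 past adjustment in either. The difference in r between the diets was not tested.

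The closest relation in RES was that of H2BC11, with r = 0.86 and rho = 0.84 (permutation p = 5e-05 and 0.00027, adjusted 0.0013 and 0.00702). H1-3 had r = 0.78 and rho = 0.68 (permutation p = 0.00241 and 0.00867, adjusted 0.0125 and 0.0401). H2BC18, the gene with the largest diet difference, had r = 0.60 and rho = 0.49 (permutation p = 0.0284 and 0.0797, adjusted 0.0614 and 0.109). H2BC26 had r = -0.44 and rho = -0.54 (permutation p = 0.12 and 0.0507, adjusted 0.194 and 0.102), but its r was 0.61 in the 7 RES sows of the upper base-quality group and -0.40 in the 7 of the lower group (exact permutation p = 0.154 and 0.345). In FF the values of the same genes were r = 0.50, 0.47, 0.46 and -0.16 (permutation p = 0.0827, 0.105, 0.109 and 0.602) and rho = 0.62, 0.53, 0.55 and -0.23 (permutation p = 0.029, 0.067, 0.0548 and 0.457). Without the 2 FF sows farthest from the SLBP median, r of H2BC26 was 0.07.

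Leaving out the 2 sows farthest from the median of SLBP also narrows its range. Without RES sows 6 and 7, whose SLBP counts of 501 and 225 were farthest from the median, the median r was 0.48, with 12 of 13 genes positive and 0 past adjustment, and r was 0.70 for H2BC11, 0.66 for H2BC5 and 0.58 for H3C4 (permutation p = 0.0104, 0.0209 and 0.045, unadjusted). Within the lower base-quality group the 7 RES sows gave a median r of 0.91, with 11 of 13 genes past adjustment by an exact permutation test, and within the upper group the 7 RES sows gave 0.41, with 0 past adjustment and 2 at an unadjusted exact p under 0.05. The lower group holds RES sows 3 and 7, and its RES sows spanned normalized SLBP counts of 225 to 487. The RES sows of the upper group spanned 382 to 501. In FF the median r was 0.74 in the lower group (6 sows, 3 genes past adjustment in the exact test) and 0.33 in the upper group (7 sows, 0 genes). The share of all genes with an r this high within a base-quality group was not counted. In the upper group r was positive for 12 of 13 genes in either diet without passing adjustment, and the difference in r between the base-quality groups was not tested. All values come from the same libraries, so that the genes are not independent of each other.

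**Figure D5:**
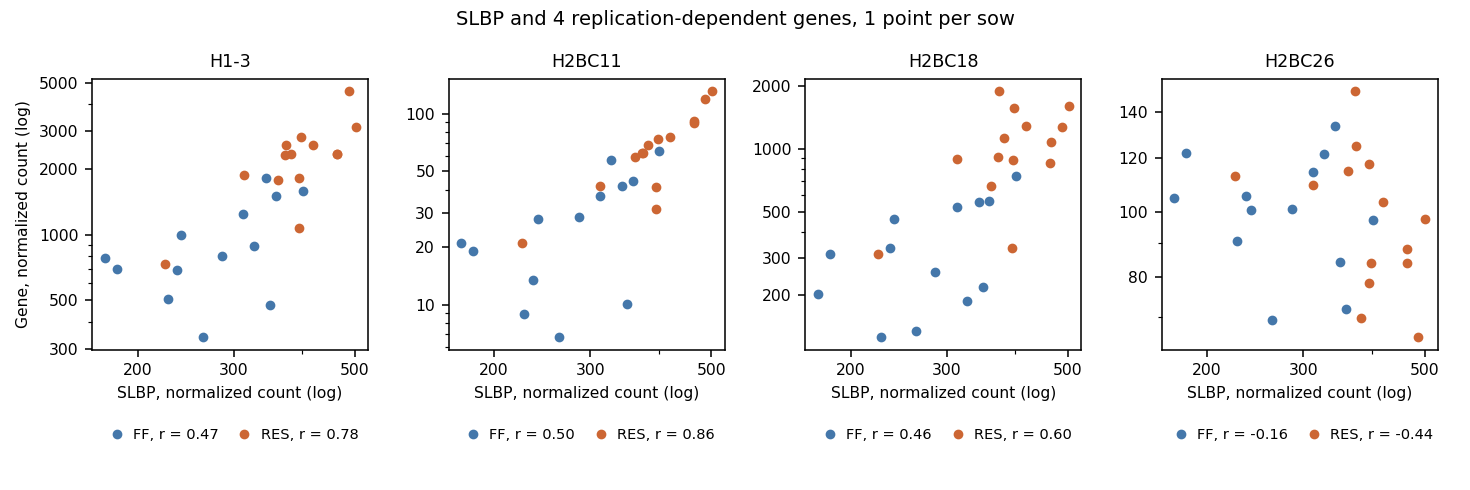
Normalized count of SLBP (x axis, log) against that of H1-3, H2BC11, H2BC18 and H2BC26 (y axis, log), with 1 point per sow, FF in blue and RES in orange, and Pearson's r of each diet. In RES r is 0.78, 0.86, 0.60 and -0.44, and the RES sow with the least SLBP, sow 7 at 225, is also the lowest RES sow for H1-3, H2BC11 and H2BC18.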

How the data were processed

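The members and lists were chosen with earlier results of these data known. The authors cleaned reads with SOAPnuke, aligned them to Sscrofa11.1 with HISAT2 2.2.1, kept uniquely mapped reads (SAMtools 1.16.1), removed PCR copies with UMI-tools 1.1.4 and counted read pairs on Ensembl exons with featureCounts 1.6.2; the deposited values are raw counts per gene. Totals per library are given above. Symbols came from a table of Ensembl identifiers, and small RNA symbols (38) were left out. Genes averaging 5 or more reads were tested with edgeR 4.0.16 (TMM, quasi-likelihood, R 4.3.3), with Benjamini-Hochberg adjustment over 11384 genes. Normalized counts use size factors of DESeq2 1.42.0 over 17467 identifiers. Correlations used 100000 permutations, or all of them for 7 sows or fewer. Further tools were limma 3.58.1 (voom), scipy 1.17.1, pandas 2.3.3, numpy 2.4.6, Python 3.11.15 and, for the plots, matplotlib 3.10.9. Tested on simulated counts of RES against FF, edgeR recovered 85% of 200 genes changed by 1 on the log2 scale among 11384, with 4.49% of calls on unchanged genes.

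Named by rule were all factors and variants tested, the 8 replication-dependent genes with the highest counts, the 6 with the largest called change and the 3 related genes with the largest called rise. No related gene was called lower. Of the variants tested and counted, 1 is not reported here. H2AC12, H2BC26, H3C2, genes with under 5 reads on average, POU2F1, HIRA, ATRX, FACT subunits, PCNA and ORC1 were added after their values were seen. The window before the start codon was chosen after RefSeq starts were seen to lie far from some codons. Base-quality groups come from a gap in the read statistics of the study. Each sow gave 1 library, so p-values cover the spread between sows.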

Additional observations from a re-analysis of the deposited data

How the results depend on the processing

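Alternatives were DESeq2's Wald test, its size factors in edgeR, upper-quartile factors, filterByExpr, no count filter, all identifiers, base quality or RIN as a covariate, either base-quality group, each library left out, voom with quality weights and, chosen after seeing the data, leaving out the 3 libraries of lowest quality or, in the lower group, FF sow 10. Over all of these except the lower base-quality group, counts of called genes stayed within 1.5 times those given above. In the lower group 0 replication-dependent genes, 0 variants, 0 supply factors, 0 related genes and 0 S phase genes were called (edgeR), with 13 libraries in that fit. Of all 11384 genes, 1 was called there. Leaving out each library in turn gave 9 to 12, 2 to 4, 6 to 10, 12 to 18 and 29 to 38 called in the same order. The calls of H2AC12 (14 of 27 fits, adjusted p 0.0513 to 0.0682), H3C2 (13 fits, 0.051 to 0.0874) and CHAF1A (11 fits, 0.0507 to 0.0601) were lost on leaving out FF sows 2, 6, 8, 12 or 14 or RES sows 1, 3, 6 or 9. Also losing it were H2AC12 without FF sow 7 or RES sow 2, 11, 12 or 13, H3C2 without FF sow 7 or 13 or RES sow 5 or 13, and CHAF1A without RES sow 11 or 12. H2AC17 (0.0512) and H1-10 (0.0573) lost it without RES sow 3, and ASF1A (0.051) without FF sow 8. H2AX was called without FF sow 1, 4 or 10 or RES sow 7 or 10 (0.0275 to 0.0486), CHAF1B without FF sow 10 or RES sow 7, and LSM10 without FF sow 5 or RES sow 7. Small fold changes turned in sign. H2AJ had -0.00 with upper-quartile factors, -0.03 with the quality covariate, -0.21 in the upper group, -0.09 without the 3 libraries, -0.13 with voom and -0.04 to 0.08 on leaving out single libraries. H3-3A had 0.00 with all identifiers and 0.08 in the lower group, where LSM11 had -0.01. The cause was not tested.

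Sow numbers are shared by the diets but did not pair the samples, since same-numbered sows deviated together with r of -0.221 to 0.297 (median 0.0109) over 13 pairs and 0 FF sows correlated best with their own number. A replicate block gave 12 replication-dependent genes, 4 variants, 7 supply factors, 12 related genes and 32 S phase genes called. For SLBP in RES, 5 genes passed without the logarithm, 0 without the 2 farthest sows and 0 in the upper group. In FF 3 passed in the lower group.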
